A study of Mus musculus with 14 samples.

Results

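The genes described here are the cytosolic ribosomal protein genes of the mouse, 76 of the 20807 autosomal protein-coding genes of the GENCODE annotation. They were chosen by symbol: Rpl or Rps followed by a number and, where present, a single letter a, l or x, plus Rplp0, Rplp1, Rplp2 and Rpsa. Symbols beginning with Rps6k, which name kinases, and symbols ending in -ps, which name pseudogenes, were left out. Of the 76 genes, 46 code for proteins of the large (60S) subunit and 30 for proteins of the small (40S) subunit. The rule used no measured value.

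Histone H3 trimethylated at lysine 4 (H3K4me3) was mapped by chromatin immunoprecipitation and sequencing in immortalised mouse embryo fibroblasts (iMEFs). Exon 4 of the floxed endogenous Ash2l had been deleted with Cre-ER in all of them. They depended on a human ASH2L fused to an FKBP tag, which had been brought in by lentivirus, and per the study's methods such cells were grown as selected clones. ASH2L belongs to the core of the KMT2 complexes, the methyltransferases of this lysine, and dTAG directs the fusion protein to an E3 ubiquitin ligase for degradation. The 12 H3K4me3 libraries came from untreated cells and from cells that had received dTAG for 30 min, 2 h, 4 h, 8 h or 16 h, with 2 replicates in each of the 6 groups. A further 2 input libraries came from untreated cells and from cells after 16 h. The deposited list holds 25431 peaks joined over all samples, as positions in the genome and with no value per library. Presence of a peak therefore says that H3K4me3 was called in at least 1 condition, and the width is that of the joined region. Changes after dTAG, the depth of the libraries and replicate error could not be read from these positions, so counts and widths are given without an error or a test.

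Ribosomal proteins assemble with ribosomal RNA into the ribosome, and growing cells make them in near-equal amounts from single-copy genes scattered over the genome. These genes are short, intron-containing and transcribed at high rates in nearly every cell type. Their mRNAs usually begin with a C followed by a run of pyrimidines, the terminal oligopyrimidine (TOP) tract, through which their translation responds to growth signals. H3K4me3 marks nucleosomes next to active transcription start sites (TSSs), most often at CpG islands, and the DNA just upstream of an active TSS is usually depleted of nucleosomes. Mammalian genomes also carry many processed pseudogenes of ribosomal proteins, which arose by reverse transcription of the mRNA and so came without the promoter.

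The starts of 7 genes show the tract that gives this class its name, and those of the 3 members without a peak are set beside them. Each line gives 30 bases of the strand of the gene, from 15 bases before the RefSeq TSS to 14 bases after it, from the RefSeq annotation of GRCm38.p6 (mm10). The TSS is base 16 of each line. Capitals mark a C followed by at least 4 pyrimidines where that run begins within 10 bases of the TSS.
Rpl38 (chr11:114668565-114668594, plus strand): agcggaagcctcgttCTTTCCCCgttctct
Rps15a (chr7:118116133-118116162, minus strand): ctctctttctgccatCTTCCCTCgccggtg
Rps27 (chr3:90213634-90213663, minus strand): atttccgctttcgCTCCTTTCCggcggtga
Rps18 (chr17:33955651-33955680, minus strand): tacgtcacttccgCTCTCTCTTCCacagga
Rps6 (chr4:86857353-86857382, minus strand): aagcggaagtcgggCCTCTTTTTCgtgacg
Rpl35 (chr2:39005117-39005146, minus strand): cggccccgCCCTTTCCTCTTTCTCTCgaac
Rplp2 (chr7:141447636-141447665, plus strand): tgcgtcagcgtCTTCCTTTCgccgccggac
Rpl10l (chr12:66284387-66284416, minus strand): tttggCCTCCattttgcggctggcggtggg
Rpl39l (chr16:10170213-10170242, plus strand): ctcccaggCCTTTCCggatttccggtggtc
Rpl3l (chr17:24727811-24727840, plus strand): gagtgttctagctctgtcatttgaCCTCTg

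In Rpl38 and Rps15a the run opens exactly at the annotated TSS, and in the next 5 genes the TSS lies inside it. In Rpl10l, Rpl39l and Rpl3l the TSS itself is not followed by such a run, although one begins within 10 bases of it. The genes printed above them were picked for their tract, so the lines do not compare genes with and without a peak. The RefSeq promoter table matched 56 of the 76 genes. At the exact RefSeq TSS, 12 of the 56 (21.4%) had a C followed by at least 4 pyrimidines, against 2.17% of all 15686 promoters in the table. Within 10 bases the count was 31 (55.4%), against 31.4% of all promoters. The count depended on the annotated base: at the GENCODE reference TSS the count was 5, against 1.79%. The 2 annotations gave the same TSS for 13 of the 56 genes, and GENCODE placed it upstream of RefSeq for 35 and downstream for 8.

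An H3K4me3 peak lay within 1 kb of a TSS in 73 of the 76 genes (96.1%), against 60.3% of all autosomal protein-coding genes, that is 12545 of 20807. All 30 genes of the small subunit and 43 of the 46 genes of the large subunit had a peak. The 3 genes without one were Rpl3l, a paralog of Rpl3 known from skeletal and heart muscle, and Rpl10l and Rpl39l, paralogs known from testis. The same 3 lacked a peak under each of the other TSS sets, windows and width limits tried. The paralog Rps27l, which is widely expressed, had a peak of 1483 bp.

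**Figure D1:**
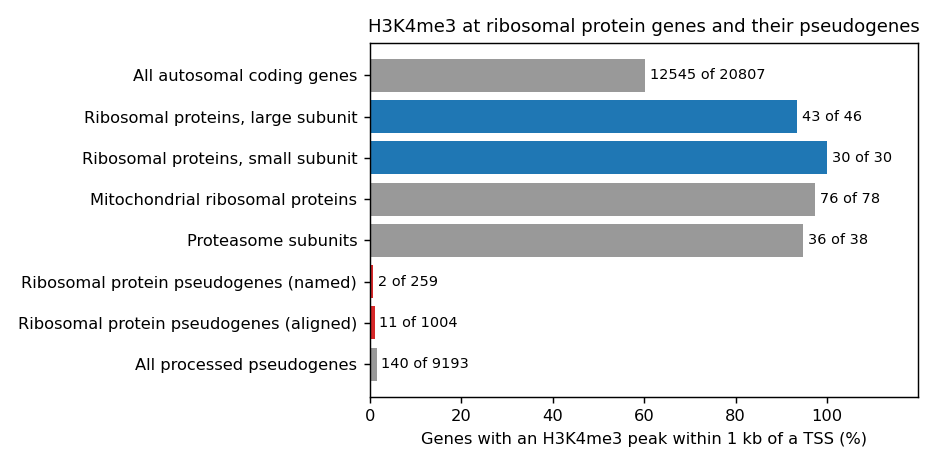
Share of genes with an H3K4me3 peak within 1 kb of a TSS (horizontal axis, percent) for each gene set (vertical axis), with the number of genes with a peak and the size of the set at the end of each bar. Bars for ribosomal protein genes are blue and bars for their processed pseudogenes are red; 43 of 46 large-subunit and 30 of 30 small-subunit genes had a peak, against 2 of 259 named pseudogenes.

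The labelled cell type was checked against genes of fibroblasts and of other cell types. A peak was found at 10 of 10 fibroblast genes, among them Col1a1, Pdgfrb and Twist1. Of 10 genes of skeletal muscle and testis, Ckm alone had a peak, of 762 bp, and Myod1, Myog, Acta1, Prm1, Tnp1 and Ddx4 were among the 9 without one.

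Rpl3l sat 7757 bp from Rps2 on chromosome 17, both on the plus strand, so a gene without a peak and a gene with 3 peaks were close neighbours. No member shared a promoter peak with another member. Rpl10l lacked a peak although a CpG island lay at its TSS, as did 9.82% of all 12320 autosomal coding genes with an island. Rpl3l and Rpl39l had no island.

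CpG islands, called here from the genome sequence, were found within 1 kb of a TSS of 73 of the 76 members (96.1%), against 59.2% of all autosomal coding genes. The share was 100% of translation factors and other TOP-class genes, and 94.9% of mitochondrial ribosomal genes. It was 90% of ribosome biogenesis genes and 84.2% of proteasome genes. An island was thus not particular to ribosomal protein genes. Rpl4 was the only member with a peak and without an island. With a stricter definition the count was 60 members (78.9%), against 39.9% of all autosomal coding genes. It was 75% of TOP-class, 53.3% of biogenesis, 47.4% of mitochondrial ribosomal and 42.1% of proteasome genes. Over all island genes, 11110 of 12320 (90.2%) had a peak. In the 300 bases of the RefSeq promoters the median CpG ratio (CpG observed over expected from base content) was 0.890 for the members and 0.615 for all promoters, while the median GC content was 57.3% in both. Rpl3l had a ratio of 0.0892, Rpl10l of 0.643 and Rpl39l of 0.836.

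Promoter motifs were searched on both strands of the same 300 bases. The ETS core CCGGAA, bound by factors such as GABPA, was present in 28 of 56 members (50.0%), against 20.2% of all promoters. A match to AAGATGG, the core of the YY1 site, was found in 8 (14.3%), against 6.43%. The letters TATAAA of the TATA box were found in 3 (5.36%), against 12.9%, and the GC box GGGCGG in 32 (57.1%), against 49.1%. In a short window just upstream of the TSS, on the strand of the gene, TATAAA was found in 0 of 56, against 2.65%. A match is a run of letters and does not show that a factor was bound.

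With matches that overlap counted as 1 site, since TTCCGGAA reads the same on both strands, Rpl39l had 4 sites and Rpl37, Rps18 and Rpsa had 3 each among the 56 genes searched. Another 6 had 2 sites and 18 had 1. Examples are given as 30 bases of the strand of the gene (RefSeq, GRCm38.p6), with the match in capitals. A match on the other strand reads TTCCGG. Rps21 is shown for its pair of sites, Rps18 as one of the genes with 3, and Rpl39l because it had no peak.
Rps21, from -88 relative to the TSS (chr2:180257279-180257308, plus strand): gctttctttgcaCCGGAAgcggaagttaaa
Rps21, from -26 (chr2:180257341-180257370, plus strand): gagtaccctgacCCGGAAgcacttaccgag
Rps18, from -157 (chr17:33955805-33955834, minus strand): gagaaggccgaaCCGGAAgttatagctccg
Rps18, from -77 (chr17:33955725-33955754, minus strand): gagagaagcaatTTCCGGaagtggacctcc
Rpl39l, from -92 (chr16:10170124-10170153, plus strand): aatttgccgtacCCGGAAgcgctggaagct
Rpl39l, without a peak, thus held these letters as well.

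The peaks of ribosomal protein genes were wide. The widest promoter peak had a median of 1846 bp over the 73 genes (quartiles 1348 and 2279 bp, range 800 to 3805 bp), and the median over all 12545 coding genes with a peak was 1264 bp (916 to 1718 bp). The members' median lay above the upper quartile of all genes. In 58 of the 73 genes the widest peak was wider than the median of all genes, in 40 it exceeded the upper quartile, and in 4 it was below the lower quartile. Genes of the large subunit had a median of 1970 bp and genes of the small subunit 1702.5 bp, with ranges that overlapped over most of their extent.

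Genes of other protein complexes found in every cell had narrower peaks at the median. For 36 of 38 proteasome subunit genes with a peak the median was 1143 bp (820 to 1392 bp), and Psma8 and Psmb11, subunits of the testis and thymus proteasomes, had none. For 76 of 78 genes of mitochondrial ribosomal proteins it was 1119.5 bp (860.75 to 1504 bp), and Mrps10 and Mrps23 had none. Ribosome biogenesis factors, such as the nucleolar proteins Fbl and Nop56, all had a peak (30 of 30), with a median of 1592.5 bp (1215.25 to 2302.5 bp). Translation factors and other genes of the TOP class, such as Eef1a1 and Pabpc1, had a peak in 16 of 16, with a median of 1346 bp (1185.25 to 2016.75 bp). Wide peaks were not limited to ribosomal protein genes: the 10 fibroblast genes had a median of 2559 bp (1212.75 to 2751 bp).

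**Figure D2:**
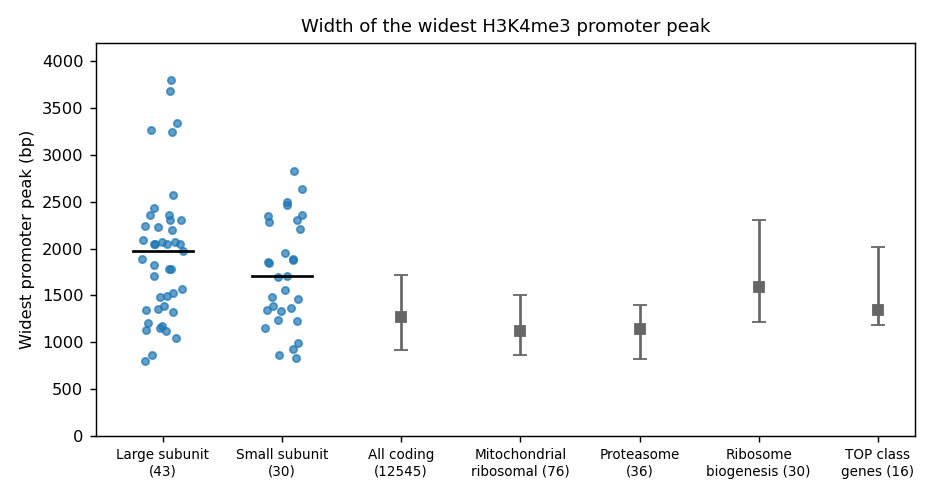
Width of the widest H3K4me3 promoter peak (vertical axis, bp) for the large-subunit and small-subunit genes with a peak, 1 point per gene with a black line at the median, beside other gene sets shown as the median (square) and quartiles (bars), with the number of genes in parentheses. The medians of 1970 and 1702.5 bp lie above those of the proteasome (1143 bp) and mitochondrial ribosomal (1119.5 bp) genes.

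Rpl35 had the widest peak, of 3805 bp (chr2:39002651-39006455), which ran from 831 bp upstream to 2973 bp downstream of its TSS and also lay within 1 kb of a TSS of Arpc5l. Rpl12 followed with 3680 bp (chr2:32960546-32964225), shared with the divergent gene Lrsam1. Rpl3, which helps to form the peptidyl transferase centre, had 3338 bp (chr15:80080056-80083393), Rpl18 had 3269 bp (chr7:45716585-45719853) and Rpl13a had 3246 bp (chr7:45125520-45128765). The peaks of Rpl3 and Rpl13a ran almost wholly downstream, from 13 to 3350 bp and from -4 to 3241 bp relative to the TSS. For Rpl18 the GENCODE reference TSS lay at -2614 bp relative to the RefSeq TSS, which was inside this peak.

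The narrowest were Rpl4 with 800 bp, Rps23 with 829 bp, Rps20 with 863 bp, Rpl21 with 867 bp and Rps21 with 923 bp. Rps23, a protein of the decoding centre, had that single peak (chr13:90923097-90923925), from 139 to 967 bp downstream of its GENCODE reference TSS. That TSS lies at -164 bp relative to the RefSeq TSS, which was inside the peak. The widest peak of Rpl4 (chr9:64172308-64173107) lay upstream of it, from -1067 to -268 bp, towards the divergent gene Zwilch, and the peak on its own side measured 613 bp.

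The stalk proteins, which recruit translation factors to the large subunit, differed in form. Rplp0 had a single peak of 2303 bp from 17 to 2319 bp. Rplp1 had 3 peaks of 527, 816 and 1049 bp, and Rplp2 had 2, of 925 and 1173 bp. Rpsa, a small-subunit protein also known as the laminin receptor, had peaks of 1878 and 300 bp, both downstream of its GENCODE reference TSS. That TSS lies at -77 bp relative to the RefSeq TSS, which was inside the wider peak.

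More than 1 peak within 1 kb of a TSS was found in 52 of the 73 genes (71.2%), against 40.4% of all coding genes with a peak. A pair of peaks was found in 33 genes, 3 peaks in 15 and 4 peaks in Rpl3, Rps18, Rps19 and Rps9. The members had a median of 6 annotated TSSs per gene, so that more positions were searched. All coding genes, those without a peak included, had 3, and coding genes with an island had 5. Around the reference TSS alone, 44 of 73 members (60.3%) had more than 1 peak, against 31.5%. More than 1 was also found at 10 of 16 TOP-class genes (62.5%) and 14 of 30 biogenesis genes (46.7%). For proteasome genes the count was 16 of 36 (44.4%) and for mitochondrial ribosomal genes 30 of 76 (39.5%). Far TSSs accounted for a peak of Rpl3 from -8296 to -7431 bp relative to its reference TSS, near Syngr1, and for one of Rps14 from -27615 to -25307 bp. Summed over all peaks of a gene, the median was 2324 bp for the members and 1519 bp for all coding genes with a peak.

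Promoters were grouped by the arrangement of peaks around the reference TSS, a grouping made after the data had been seen. In 38 of 73 members (52.1%) an interval of at most 500 bp without a peak lay between 2 peaks and within 100 bp of the TSS, against 21.6% of all coding genes with a peak. With peaks of at least 500 bp only, the count was 19 of 73 (26.0%), against 11.4% of genes with such a peak at the reference TSS. A single peak covered the TSS and 100 bp on both sides in 15 members (20.5%), against 51.7%. In the remaining 20 members (27.4%) no peak base within the 1 kb upstream lay more than 100 bp from the TSS, against 19.2%. That share was 27.8% of proteasome, 27.6% of mitochondrial ribosomal, 25% of TOP-class and 10% of biogenesis genes. A gap was found at 15 of 36 proteasome genes (41.7%), 13 of 76 mitochondrial ribosomal genes (17.1%), 9 of 16 TOP-class genes (56.2%) and 13 of 30 biogenesis genes (43.3%). It was thus not particular to ribosomal protein genes.

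**Figure D3:**
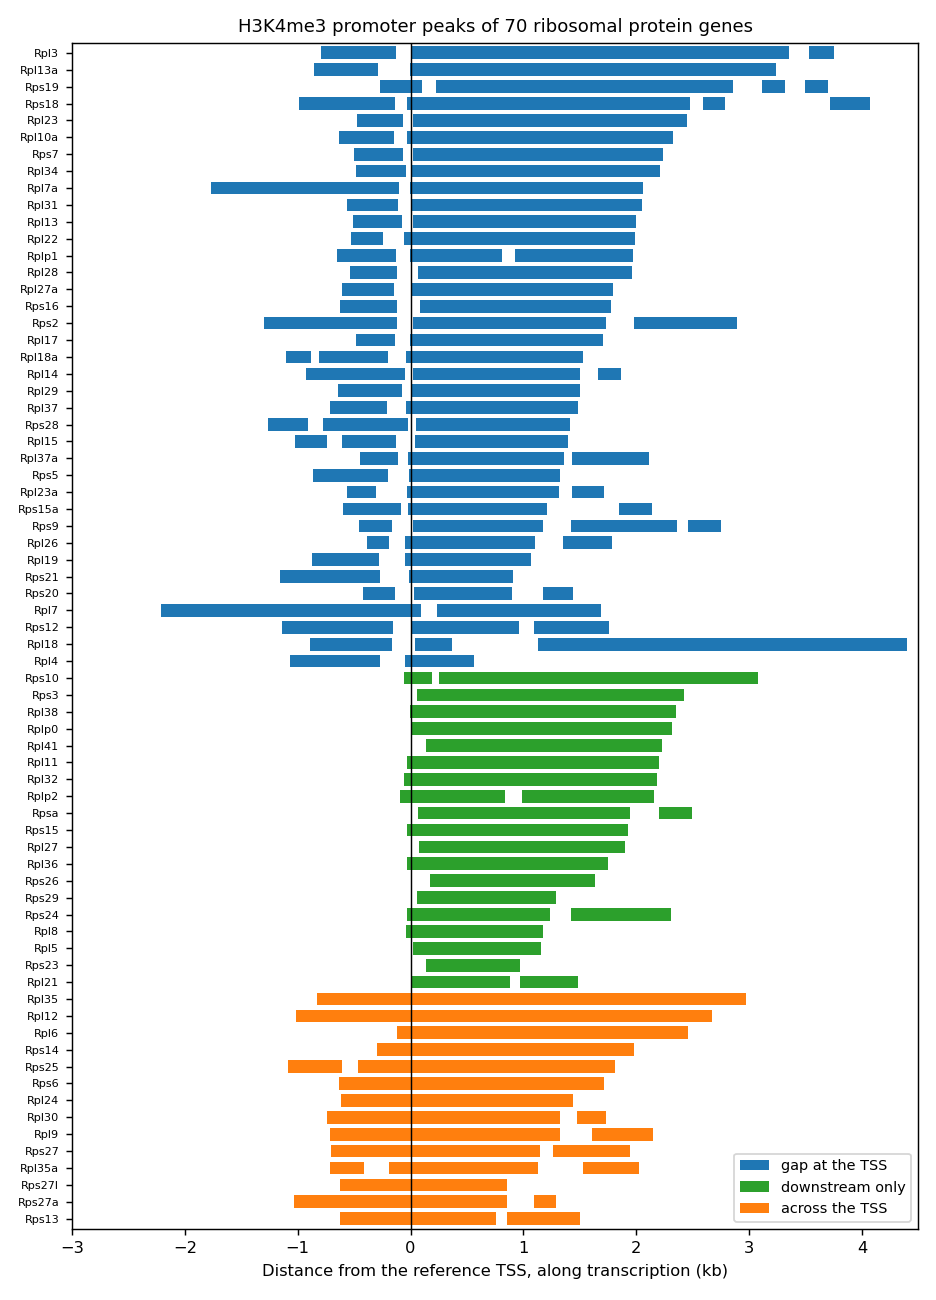
The H3K4me3 promoter peaks of 70 of the 73 members (rows) drawn to scale along the distance from the reference TSS in the direction of transcription (horizontal axis, kb), cut off at -3 and 4.5 kb. Colours give the arrangement: a gap at the TSS in 37 of the genes drawn (blue), peaks downstream only in 19 (green) and a peak across the TSS in 14 (orange).

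The gap had a median length of 141 bp in the members (range 47 to 285 bp) and 147 bp over all genes with one. Its edges lay at medians of -127 and 3.5 bp relative to the TSS. The peak on the downstream side had a median width of 1543 bp in the members, against 1051 bp over all genes with a gap. On the upstream side the medians were 503.5 and 508 bp. The medians of the members and of all genes with a gap were thus apart on the downstream side and close on the upstream side.

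Rpl34 had the shortest gap, of 47 bp between peaks of 443 and 2199 bp. Rpl13a had the longest, of 285 bp between peaks of 566 and 3246 bp. At Rps18, the peaks on either side measured 845 and 2502 bp, with a gap from -142 to -29 bp relative to the GENCODE reference TSS. That TSS lies at -12 bp relative to the RefSeq TSS, from which the matches printed above are counted, and the match from -77 fell inside the gap. Rpl7 and Rps19 had their gap downstream of the GENCODE reference TSS, from 92 to 234 bp and from 98 to 221 bp. For Rps19 that TSS lies at -221 bp relative to the RefSeq TSS, so the gap ended at the RefSeq TSS.

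Taken over all 73 genes, 60.3% had the reference TSS inside a peak, against 77.7% of all coding genes with a peak. At 100 bp upstream, 34.2% of members and 57.0% of all genes were inside a peak. At 300 bp downstream the shares were 100% and 88.1%, and at 1000 bp downstream they were 89.0% and 48.0%. Mitochondrial ribosomal genes stood at 32.9% and proteasome genes at 50.0% at that last distance. At 100 bp upstream, proteasome genes stood at 44.4% and mitochondrial ribosomal genes at 59.2%. Members thus had less coverage than these sets and all coding genes just upstream of the TSS, and more coverage far downstream. The other gene lists were not profiled in this way.

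**Figure D4:**
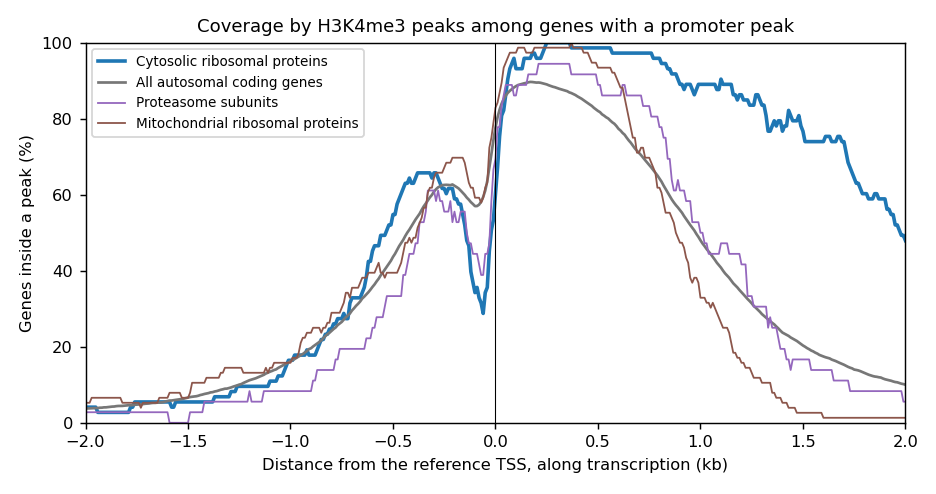
Share of genes with a promoter peak that lie inside a peak (vertical axis, percent) at each distance from the reference TSS in the direction of transcription (horizontal axis, kb). At 1 kb downstream the share was 89.0% for the 73 members (thick blue), 48.0% for all 12545 coding genes (grey), 50.0% for proteasome genes (purple) and 32.9% for mitochondrial ribosomal genes (brown).

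The widest peak near the reference TSS began at a median of -11 bp and ended at a median of 1712 bp in the members. Over all genes it began at -274 bp and ended at 949 bp. The median end was 1338.5 bp in TOP-class, 1276 bp in biogenesis, 954 bp in proteasome and 817.5 bp in mitochondrial ribosomal genes. In the fibroblast genes it was 1899.5 bp, so a long downstream reach was not particular to ribosomal protein genes. With peaks merged within 1 kb the medians were -561 and 2024 bp in the members and -489 and 1054 bp over all genes, so that the start near the TSS held for the peaks as listed and the longer downstream reach held in both. The upstream end of the widest listed peak lay within 100 bp of the TSS in 47 members (64.4%), against 32.7%. It did so in 11 of 16 TOP-class genes (68.75%) and 21 of 36 proteasome genes (58.3%). For biogenesis genes the count was 12 of 30 (40%) and for mitochondrial ribosomal genes 27 of 76 (35.5%). A start near the TSS was thus not particular to ribosomal protein genes. Rpl7 reached farthest upstream, with a peak from -2215 to 91 bp that also lay near a TSS of Rdh10.

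The peaks covered much of the gene bodies. The median length of the 76 genes was 3399.5 bp, and that of all autosomal coding genes was 17629 bp. At least 50% of the gene body lay in listed peaks in 45 of 73 members (61.6%), against 4.02% of all coding genes with a peak. All listed peaks that overlapped the gene were counted here, not only promoter peaks. The bodies of Rps27, Rpl13a, Rps15 and Rpl36 were covered from end to end. Across the 73 genes, width and gene length had a Spearman correlation of 0.24, given as a description, since genes are not replicates.

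Introns of ribosomal protein genes often carry small nucleolar RNAs, which guide modification of ribosomal RNA. Annotated snoRNA genes lay inside 27 of the 76 members (35.5%), 54 in all, against 1.17% of all autosomal coding genes. They also lay inside 5 of 16 TOP-class genes (31.25%) and 5 of 30 biogenesis genes (16.7%), whose X-linked genes were not searched. For proteasome genes the count was 1 of 38 and for mitochondrial ribosomal genes 0 of 78. Rpl4 held 5 and Rpl13a held 4. This is a feature of the annotation and was added after the data had been seen.

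A TSS of another protein-coding gene lay within 1 kb of a promoter peak in 20 of 73 members (27.4%), against 22.5%, and inside such a peak in 19 (26.0%), against 20.3%. The Rps10 case is a readthrough gene of the same locus. Within 1 kb of a peak, the share was 46.1% of mitochondrial ribosomal, 40% of biogenesis, 22.2% of proteasome and 18.75% of TOP-class genes. A coding gene on the opposite strand began within 1 kb upstream at 11 of the 76 members (14.5%), against 9.36%. Among all coding genes with an island the share was also 14.5%. It was 40% of biogenesis, 32.1% of mitochondrial ribosomal, 18.75% of TOP-class and 15.8% of proteasome genes. Such a partner was thus not particular to ribosomal protein genes. The closest pairs of the members were Rps28 and Ndufa7, 10 bp apart, followed by Rps25 and Trappc4 at 33 bp, Rps27 and Rab13 at 44 bp, and Rpl9 and Lias at 53 bp. The others were Rpl15 with Nkiras1, Rpl7a with Med22, Rps18 with Vps52, Rpl35a with Iqcg, Rpl18 with Sphk2, Rpl4 with Zwilch and Rpl12 with Lrsam1, at 69 to 304 bp. Distances and arrangements were taken from the GENCODE reference TSS of the member, which for Rpl18 lies at -2614 bp relative to the RefSeq TSS. Of these 11 genes, 6 had a gap at the TSS, 5 had a peak across it and 0 had peaks downstream only. Of all coding genes with a peak and such a partner, 38.7%, 54.0% and 2.78% did. Among the 62 members with a peak and no such partner, 32 had a gap (51.6%), 10 a peak across the TSS (16.1%) and 20 peaks downstream only (32.3%), against 18.6%, 51.3% and 22.0% of all coding genes without a partner. A peak at a shared promoter belongs to both genes and cannot be divided between them.

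The processed pseudogenes gave the contrast. Of 259 autosomal pseudogenes named after a ribosomal protein, 2 (0.772%) had a peak within 1 kb, against 1.52% of all 9193 autosomal processed pseudogenes. These were Rps2-ps2, with a peak of 200 bp (chr1:7664495-7664694), and Rpl29-ps2, whose widest peak of 591 bp (chr13:4608611-4609201) also lay near a TSS of the coding gene Akr1e1. Of 6 genes with -ps symbols that are annotated as protein-coding, 0 had a peak.

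Because many such copies carry other symbols, processed pseudogene transcripts were also aligned to the mRNAs of the members, a set added after the data had been seen. It held 1004 pseudogenes from 50 parent genes, led by Rpl7a with 136, Rpl29 with 97 and Rps2 with 81. Their median identity to the parent was 90.9%, and 63 had at least 99%, and the placing of reads between near-identical copies was not tested. Together with the named ones there were 1114, and 11 had a peak. In 8 of these 11 the peak also lay within 1 kb of a TSS of another gene, namely Akr1e1, Tiparp, Sri, Fcho2, Mdm4, Arl1, Mospd3, and Wdr27 with 1600012H06Rik. The other 3 had peaks of 200, 201 and 335 bp, the first at Rps2-ps2 and the last at Gm47010, a copy of Rpl26. The widest peak of each of these 3 was narrower than the 800 bp of Rpl4, the smallest widest peak of a member, although single peaks of members were as narrow as 200 bp.

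Genes of the same family outside the rule also carried peaks. All 4 X-linked genes, Rpl10, Rpl36a, Rpl39 and Rps4x, had a peak, with a median of 1251.5 bp for the widest. Fau, Rack1, Rps3a1 and Rpl36al, which code for ribosomal proteins under other symbols, had widest peaks of 1381, 3404, 1841 and 2470 bp. Of the paralogs Rpl7l1, Rpl22l1 and Rpl36al, Rpl22l1 had the narrowest, of 683 bp.

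Putative enhancers, which the authors defined in control cells away from TSSs, were rare inside the members. An enhancer overlapped the gene body of 4 of the 76 genes (5.26%), Rpl11, Rpl24, Rpl10a and Rps14, with 1 each, against 25.8% of all autosomal coding genes. The authors' definition left out the surroundings of TSSs, and most members are short, which was not separated from this count. Within 50 kb of the reference TSS, 54 members (71.1%) had an enhancer, against 57.0%, and within 10 kb 19 (25%) did, against 18.9%. For all coding genes with an island these shares were 66.9% and 22.4%, and for TOP-class genes 75% and 43.75%. They were 62.8% and 11.5% for mitochondrial ribosomal, 56.7% and 13.3% for biogenesis, and 55.3% and 23.7% for proteasome genes. Among the members, Rpl27a had the most within 50 kb, with 7, and Rps21 had 6, of which 3 lay within 10 kb.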

How the data were processed

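Members, gene lists and classes were chosen with earlier results of these data known. The authors' pipeline was Trim Galore, alignment to mm10 (GRCm38.p6) by BWA, merging of replicates by Picard and calling of narrow peaks by MACS. The 2 deposited lists used here, of peaks and of enhancers, hold positions only, a unit other than counts or signal, and 0 columns of values per sample, so no depth is known and the count test planned over time could not be made; other lists of the study were not analysed here. Counting was taken to begin at 0 in the peak list, whose smallest difference of end and start was 200, and from 1 in the enhancer list (most frequent difference 199). Of 25431 peaks, 25357 lay on the assembled chromosomes.

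A promoter peak had any base within 1 kb (1000 bp) of any TSS of GENCODE release M21; the study names a later release. The reference TSS was that of the coding transcript with the best APPRIS tag, then support level, then length. CpG islands (16095, strict 8678) were called from repeat-masked sequence with at least 200 bp, 50% GC and a CpG ratio of 0.6 (strict 500 bp, 55% and 0.65). Pseudogenes were aligned with blastn at 80% identity or more over at least 200 bases and 50% of the transcript. Python 3.11.15, NumPy 2.4.6 and pandas 2.3.3 were used, and the interval and island functions were tested on simulated data. Genes were named when they had no peak, were among the 5 widest or narrowest, had several peaks, shared a peak with a coding gene, coded for stalk proteins, Rpsa or listed paralogs, lay at an extreme of reach or held an enhancer; pseudogenes were named when they had a peak. Others were named after their values were seen. Values of a few single genes are not reported here; these genes stay in the counts and medians.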

Additional observations from a re-analysis of the deposited data

How the results depend on the processing

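No paired analysis was possible because positions without a value per library were deposited, although the labels share replicate numbers. For the same reason no replicate could be left out. The number of members with a peak was 73 under each TSS set, window, width limit and merging tried. Of 45 alternatives, 31 gave values near the reported ones and 14 moved them; the cause was not tested. Merging peaks within 1 kb raised the median widest peak to 2584 bp (all genes 1639 bp) and moved the median ends to -561 and 2024 bp. With peaks of at least 500 bp only, a choice made after seeing the data, 19 members had a gap at the TSS in place of 38. The named pseudogenes with a peak numbered 9 with a 2 kb window and 1 with RefSeq TSSs, with peaks that contain the TSS, with peaks of at least 500 bp, without transcribed pseudogenes, or without peaks near another gene; the aligned set gave 11. Coding-transcript TSSs could not be used for pseudogenes. Exact pyrimidine tracts (12) became 5 at GENCODE TSSs and 31 within 10 bases. Enhancers lay within 10 kb of the reference TSS of 19 members. Width, the only measure of size, depends on the peak caller and on joining 12 libraries.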
